A study of Homo sapiens with 4 samples.

Results

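The genes of the proteasome, the protease complex that breaks down ubiquitin-tagged proteins, were followed in the RNA-seq counts of ovarian cancer stem cells (OCSCs) given an ERβ agonist. Members were the genes whose symbols begin with PSM, a letter from A to G and a number, which gave 49 of the 23228 gene symbols in the count files. Of these, 48 encode proteasome subunits, activators, an inhibitor or assembly chaperones, and PSMC3IP, which encodes a recombination factor, shares only the letters and was kept apart. The labels give the cells as SKOV3, an established human ovarian cancer cell line, sorted by FACS for high aldehyde dehydrogenase activity with the ALDEFLUOR kit and grown as spheroids in DMEM-F12 with B27, EGF, bFGF, hydrocortisone and insulin. They received vehicle (2 samples) or 5 µM LY500307, an ERβ agonist (2 samples), for 24 h. All 4 samples carry the label of the same cell line, and the labels do not say whether the replicates were separate cultures, so p-values measure only the spread between these samples, which may be technical. In bulk RNA, fewer cells of a type and less RNA per cell cannot be told apart.

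Between 28841701 and 34943882 reads per sample were counted on genes. Reads on no gene made up 28.4% to 30.8% of all reads assigned to a gene, to no gene or to several genes in the vehicle samples and LY500307 replicate 1, and 25.5% in LY500307 replicate 2. A chi-square test of gene counts within each group gave 5.16 per degree of freedom with vehicle and 42.5 with LY500307, so no replicate was a copy. The test does not say which LY500307 sample stood apart. Replicate 2 lay farther from the vehicle mean than replicate 1 for 10086 of the 14473 genes tested. The epithelial markers EPCAM (6213 to 8327 reads), KRT18 (668 to 1030) and ERBB2 (1452 to 2060) were counted in every sample, whereas KRT7, KRT19, PAX8 and WT1 had at most 2 reads and KRT8 had 9 to 33. ALDH1A1 had 134 to 185 reads and ALDH1A2 had 315 to 347, while CD44 had 3 to 16. Of the other ALDH and stem cell markers, SOX2 had 110 to 173 reads, PROM1 21 to 43 and ALDH1A3 8 to 16. NANOG had 1 to 4 reads and POU5F1 at most 1. ESR2, the ERβ gene, had 7 to 12 reads and ESR1 had 0. Of the leukocyte markers, PTPRC, CD3E and LYZ had at most 9 reads and CD68 had 372 to 620. The 3 endothelial markers had at most 11. The fibroblast collagen genes COL1A1 (5404 to 7703 reads) and COL1A2 (7291 to 12767) were high in all samples, while PDGFRB had 40 to 88 reads and DCN 263 to 283. DCN was lower in both LY500307 samples (7.58 and 8.76 CPM) than in both vehicle samples (9.11 and 9.61 CPM). The summed level of the 4 fibroblast markers was 447 and 458 CPM (reads scaled to a common library size) with vehicle and 531 and 635 CPM with LY500307, nearly all of it from the collagen genes. Their part in the results was not tested. With KRT7, KRT8, KRT19 and CD44 near 0 and the collagen genes high, the markers leave the labelled identity of the cells in doubt, and it was not tested.

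The proteasome has a barrel-shaped 20S core made of rings of alpha subunits, which gate entry, and of beta subunits, some of which carry the proteolytic sites. A 19S cap recognises ubiquitin chains, removes them, unfolds the substrate with a ring of ATPases and opens the gate. Alternative caps, an immune form of the core in which PSMB8, PSMB9 and PSMB10 replace the standard catalytic subunits, and dedicated chaperones complete the family. When proteasome activity falls, the transcription factor NFE2L1 is known to raise transcription of many subunit genes together.

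Among the 48 proteasome genes, 2 met the criteria that the study used (an unadjusted p under 0.05 with a log2 fold change beyond 0.5 in size): PSMA2 and PSMB3, both core subunit genes and both higher with LY500307. None met them in the lower direction. The edgeR quasi-likelihood test covered 44 of the 48, and 4 had too few reads. Over all 14473 genes tested, 2.76% were called higher and 1.86% were called lower, so 2 of 44 lies near the background. The median log2 fold change of the 44 genes was 0.08, and 33 were above 0. Across all genes tested, 7233 were above 0 and 7240 below.

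An unadjusted p below 0.05 was found for 7 of the 44, all higher with LY500307, beside 6.09% of all genes tested that were higher and 5.50% that were lower. These were PSMA2, PSMA3, PSMA5, PSMA7, PSMB3, PSMB4 and PSMC4, of which only PSMC4 lies outside the core. After Benjamini-Hochberg adjustment over all genes, edgeR gave 0 proteasome genes below 0.05 (0 of 14473 genes, with 1678 at an unadjusted p below 0.05). DESeq2 also gave 0 proteasome genes below 0.05 after adjustment, with 7 at an unadjusted p below 0.05, and 20 of all genes. With DESeq2 the same criteria called 3 proteasome genes higher, adding PSMB10, beside 2.57% of all genes.

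Both LY500307 samples lay above both vehicle samples for 22 of the 44 genes, below them for 4, and overlapped them for 18. Over all genes tested, 24.2% lay above and 24.4% lay below. The genes that lay above were mostly those of the 20S core, 13 of the 15 tested, against 3 of 17 for the 19S cap. The difference between core and cap was not tested. An exact permutation test of 2 against 2 samples cannot give a two-sided p below 0.33.

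**Figure D1:**
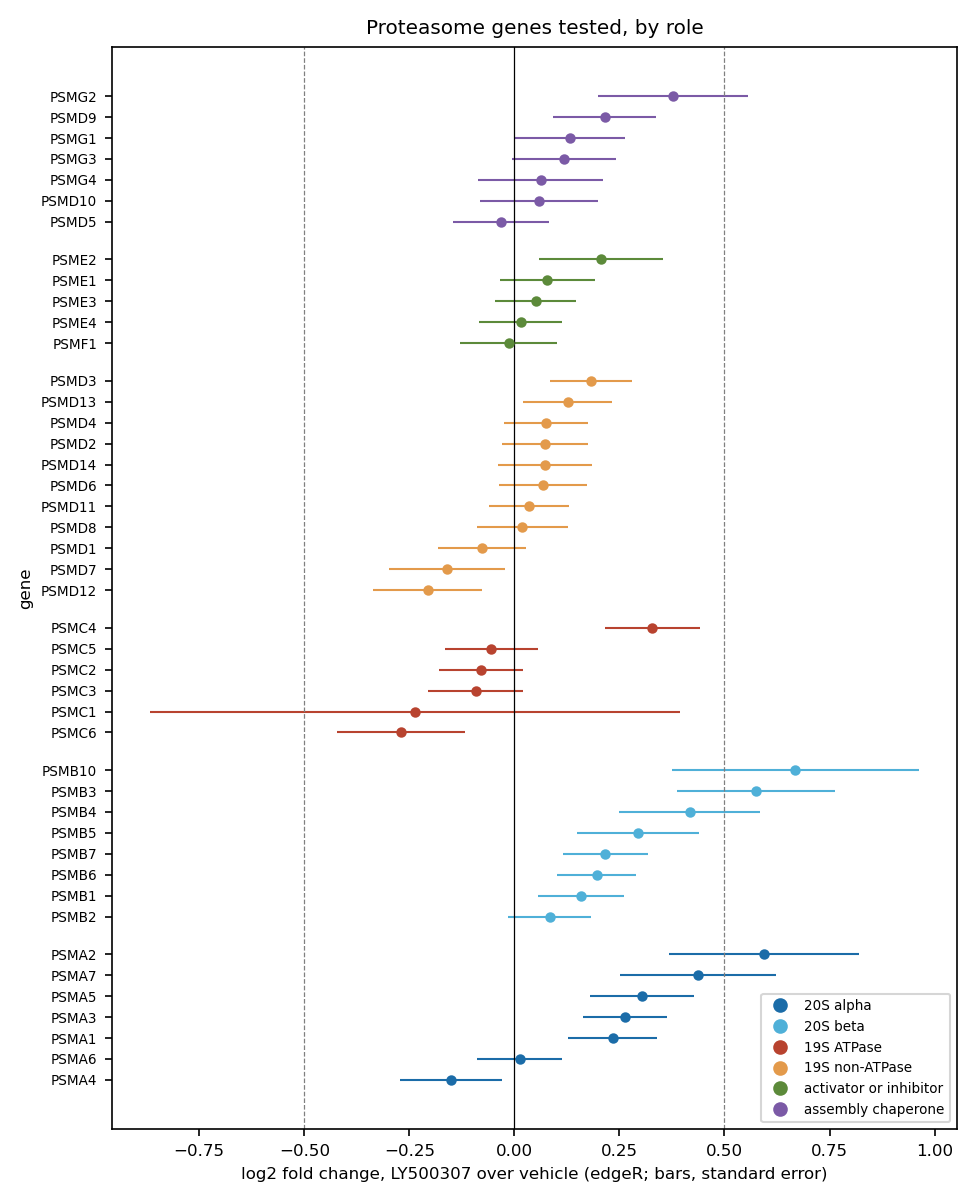
Log2 fold change of LY500307 over vehicle (x axis) for each of the 44 proteasome genes tested (y axis), grouped and coloured by role, with points for the edgeR estimate, bars for its standard error and dashed lines at the 0.5 threshold. Of the 15 core genes 14 lie to the right of 0, and the 17 cap genes lie on both sides, from -0.27 to 0.33.

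The alpha ring genes had a median log2 fold change of 0.26 over the 7 tested, with 6 above 0. PSMA2, which encodes an alpha subunit, lies on chromosome 7 at 42956427 to 42971784 on the minus strand (hg19). It had 2805 and 2510 reads with vehicle and 3453 and 5663 with LY500307, or 93.6 and 88.3 CPM against 99.5 and 175 CPM. Both treated samples were above both vehicle samples, replicate 1 by little and replicate 2 by far more. The log2 fold change of PSMA2 was 0.59 ± 0.23 (SE), with an unadjusted p of 0.0310 and an adjusted p of 0.422 (edgeR). Without LY500307 replicate 2 its log2 fold change was 0.13 and the call was lost, and without vehicle replicate 2 the call was lost at 0.55.

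PSMA3, at the median of the alpha group, had 93.0 and 91.8 CPM with vehicle and 105 and 116 CPM with LY500307. The groups did not overlap, and the log2 fold change was 0.26 ± 0.10 (SE), below the fold criterion, with an adjusted p of 0.423 (edgeR). PSMA4 was the only core gene with a negative value. It had 250 and 251 CPM with vehicle and 249 and 203 CPM with LY500307, a log2 fold change of -0.15 ± 0.12 (SE) and an adjusted p of 0.594 (edgeR). LY500307 replicate 1 lay just under both vehicle samples and replicate 2 well under them. PSMA1, PSMA5, PSMA6 and PSMA7 had values from 0.01 to 0.44. PSMA8, the alpha subunit of testis, had 0 reads in all 4 samples, where a count of 0 allows up to 3 reads per sample, or 0.0864 to 0.106 CPM. Such floors cover counting error only.

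The beta ring genes had a median of 0.25, and all 8 tested were above 0 with both treated samples above both vehicle samples. PSMB3, a non-catalytic beta subunit gene on chromosome 17 at 36908994 to 36920478 on the plus strand (hg19), had 2063 and 1981 reads with vehicle and 2800 and 4060 with LY500307. In CPM this was 68.8 and 69.7 against 80.7 and 126. The vehicle samples were close to each other, LY500307 replicate 1 was a little higher and replicate 2 was highest. PSMB3 had a log2 fold change of 0.57 ± 0.19 (SE), with an unadjusted p of 0.0160 and an adjusted p of 0.422 (edgeR). Without LY500307 replicate 2 the value was 0.22, under the fold criterion. PSMB2, another non-catalytic subunit gene, was lowest of the beta group, with 143 and 156 CPM with vehicle and 159 and 158 CPM with LY500307, and a log2 fold change of 0.08 ± 0.10 (SE).

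The standard catalytic subunits are encoded by PSMB5, PSMB6 and PSMB7, which carry the chymotrypsin-like, caspase-like and trypsin-like activities. PSMB5 had 202 and 194 CPM with vehicle and 207 and 278 CPM with LY500307, a log2 fold change of 0.29 ± 0.14 (SE) and an adjusted p of 0.445 (edgeR). PSMB6 had 137 and 132 CPM with vehicle and 154 and 155 CPM with LY500307, a log2 fold change of 0.20 ± 0.09 (SE) and an adjusted p of 0.441 (edgeR). PSMB7 had 116 and 106 CPM with vehicle and 124 and 133 CPM with LY500307, a log2 fold change of 0.22 ± 0.10 (SE) and an adjusted p of 0.434 (edgeR). None of the 3 met the criteria. For PSMB6 and PSMB7 both treated samples were higher by similar amounts, whereas for PSMB5 the difference lay mostly in LY500307 replicate 2.

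Their immune counterparts were scarce. PSMB8, the counterpart of PSMB5, had 0 and 2 reads with vehicle and 5 in each LY500307 sample. PSMB9, the counterpart of PSMB6, had 5 and 2 reads with vehicle and 2 and 4 with LY500307. Both genes stayed under the expression filter and were not tested, and at this depth no difference between the groups was detectable. Per kilobase of transcript, PSMB8 stood at 0 to 0.0647% of the level of PSMB5 and PSMB9 at 0.0304% to 0.0988% of that of PSMB6. The thymus subunit gene PSMB11 had 0 reads in all samples.

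PSMB10, the counterpart of PSMB7, had the highest fold change of the family but was counted at a low level. Of the proteasome genes tested, only PSMC1 had fewer reads. It lies on chromosome 16 at 67968409 to 67970767 on the minus strand (hg19). It had 143 and 168 reads with vehicle and 211 and 353 with LY500307, or 4.77 and 5.91 CPM against 6.08 and 10.9 CPM. LY500307 replicate 1 was barely above vehicle replicate 2, and replicate 2 was clearly higher. The log2 fold change of PSMB10 was 0.67 ± 0.29 (SE), with an unadjusted p of 0.0522, just outside the criterion, and an adjusted p of 0.431 (edgeR). DESeq2 called it, with an unadjusted p of 0.0300 and an adjusted p of 0.367. Per kilobase of transcript its level was 4.16% and 5.61% of that of PSMB7 with vehicle and 4.92% and 8.27% with LY500307, so only LY500307 replicate 2 lay outside the vehicle range.

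The start regions of these 3 genes are shown because they are the proteasome genes with the largest fold changes. Each stretch is the 120 bases before the RefSeq transcription start on GRCh38.p14, written 5′ to 3′ along the gene. Capitals mark the core of the antioxidant response element (TGACNNNGC), to which NFE2L1 and NFE2L2 can bind, and the CCAAT box, to which NF-Y can bind. Both were searched on both strands. The stretches are at chr7:42932175-42932294 on the minus strand for PSMA2, chr17:38752621-38752740 on the plus strand for PSMB3, and chr16:67936851-67936970 on the minus strand for PSMB10.
PSMA2: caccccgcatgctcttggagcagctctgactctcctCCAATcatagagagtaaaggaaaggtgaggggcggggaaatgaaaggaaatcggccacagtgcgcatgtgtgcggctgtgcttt
PSMB3: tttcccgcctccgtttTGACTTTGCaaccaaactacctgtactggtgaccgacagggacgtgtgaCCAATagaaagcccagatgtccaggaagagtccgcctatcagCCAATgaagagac
PSMB10: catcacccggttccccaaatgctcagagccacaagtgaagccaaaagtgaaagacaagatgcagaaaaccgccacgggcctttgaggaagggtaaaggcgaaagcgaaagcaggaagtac
PSMB3 held the response element core, starting 104 bases before the start, and more than 1 CCAAT box. PSMA2 held a CCAAT box alone, and neither motif was in the PSMB10 stretch. Among the 42 proteasome genes with a RefSeq promoter, 11 (26.2%) held the response element core within 250 bases before the start, beside 11.0% of 27305 genes. A CCAAT box was found in 18 (42.9%), beside 33.0% of all genes. A match describes the letters in the window and does not show that a factor bound there.

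The 19S cap genes lay on both sides of 0. Their median log2 fold change was 0.02 over the 17 tested, with 9 above 0. The ATPase genes, whose products form the unfolding ring, had a median of -0.09, and 5 of the 6 were below 0. PSMC4 was the exception. It had 116 and 113 CPM with vehicle and 131 and 156 CPM with LY500307, and the groups did not overlap. Its log2 fold change of 0.33 ± 0.11 (SE) had an unadjusted p of 0.0204 and an adjusted p of 0.422 (edgeR), and it missed the fold criterion.

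PSMC6 had the lowest value of all tested proteasome genes, with 71.7 and 73.6 CPM with vehicle and 69.7 and 50.7 CPM with LY500307. The first treated sample lay just under the vehicle samples and the second well under them. The log2 fold change of PSMC6 was -0.27 ± 0.15 (SE), with an adjusted p of 0.477 (edgeR). PSMC2, near the middle of the ATPase group, had 101 and 99.3 CPM with vehicle and 99.2 and 90.2 CPM with LY500307, a log2 fold change of -0.08 ± 0.10 (SE) that turned to 0.018 when a trend with GC content was subtracted.

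PSMC1 could hardly be measured. It had 46 and 21 reads with vehicle and 15 and 49 with LY500307, where the other 5 ATPase genes had 1640 to 6406 reads per sample. Of the 50-base windows in its coding sequence, as long as the reads, 98.7% occurred at another place in GRCh37. Over its whole transcript the share was 38.0%, so most windows outside the coding part occurred only once. Counting that leaves out reads with several positions would lose such reads, but whether this accounts for the low count was not tested. Its log2 fold change of -0.24 ± 0.63 (SE) has an error larger than the value, and its 2 groups overlapped. The share of coding windows found elsewhere was also 47.3% for PSMC6, 34.98% for PSMA6, 25.05% for PSMD4, 22.0% for PSME2 and 11.1% for PSMD2, so counts of these genes are uncertain.

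The 11 non-ATPase cap genes, whose products include the ubiquitin receptors, the deubiquitinase PSMD14 and the scaffold, had a median of 0.07 and ranged from -0.21 to 0.18. None reached an unadjusted p below 0.05. PSMD3, a scaffold subunit gene, was highest, with 175 and 172 CPM with vehicle and 190 and 203 CPM with LY500307, and a log2 fold change of 0.18 ± 0.10 (SE). PSMD12, also a scaffold subunit gene, was lowest, with 104 and 106 CPM with vehicle and 102 and 79.9 CPM with LY500307, and a log2 fold change of -0.21 ± 0.13 (SE). The groups did not overlap for either gene, but the adjusted p was 0.461 for PSMD3 and 0.516 for PSMD12 (edgeR). PSMD6, at the median, overlapped, with 93.9 and 97.6 CPM against 106 and 94.5 CPM.

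The genes of the alternative caps and of the inhibitor lay close to 0, with a median of 0.05 over 5 genes and none called. PSME2, which with PSME1 encodes the interferon-inducible PA28 cap, had 34.2 and 33.1 CPM with vehicle and 33.8 and 43.7 CPM with LY500307. Only LY500307 replicate 2 was above the rest, and the log2 fold change of PSME2 was 0.21 ± 0.15 (SE). PSME3, which encodes the nuclear PA28 gamma cap, had 202 and 207 CPM with vehicle and 210 and 214 CPM with LY500307, a log2 fold change of 0.05 ± 0.10 (SE). PSMF1, the PI31 gene, had 96.2 and 90.3 CPM against 100.1 and 84.6 CPM, with overlap.

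The 7 assembly chaperone genes had a median of 0.12, with 6 above 0 and none called. PSMG2, which encodes a chaperone of alpha ring assembly, had 29.1 and 33.4 CPM with vehicle and 33.5 and 47.6 CPM with LY500307. Vehicle replicate 2 and LY500307 replicate 1 were nearly equal, and LY500307 replicate 2 stood above. The log2 fold change of PSMG2 was 0.38 ± 0.18 (SE), with an unadjusted p of 0.0679 and an adjusted p of 0.436 (edgeR). PSMG3, another core chaperone gene, had 31.5 and 35.4 CPM with vehicle and 36.9 and 35.6 CPM with LY500307. PSMD5, a chaperone of the cap base, had 120 and 106 CPM against 118 and 103 CPM, with overlap and a log2 fold change of -0.03 ± 0.11 (SE).

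PSMC3IP, which matched the letters only, had 39.2 and 45.6 CPM with vehicle and 38.6 and 27.5 CPM with LY500307. Its log2 fold change was -0.36 ± 0.18 (SE), with an adjusted p of 0.444 (edgeR).

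Summed over genes, the core and the cap parted in 1 sample. The 19 core genes summed to 1863 and 1808 CPM with vehicle and 1980 and 2369 CPM with LY500307. The 17 cap genes summed to 2628 and 2611 CPM with vehicle and 2706 and 2563 CPM with LY500307. The ratio of core to cap reads was thus 0.709 and 0.692 with vehicle, 0.732 in LY500307 replicate 1 and 0.924 in LY500307 replicate 2. The first treated sample lay slightly above the vehicle range and the second far above it. All proteasome genes together took 0.536% and 0.528% of gene counts with vehicle and 0.561% and 0.612% with LY500307. These sums compare each group of genes between samples. They do not give the amounts of core and cap in a cell.

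**Figure D2:**
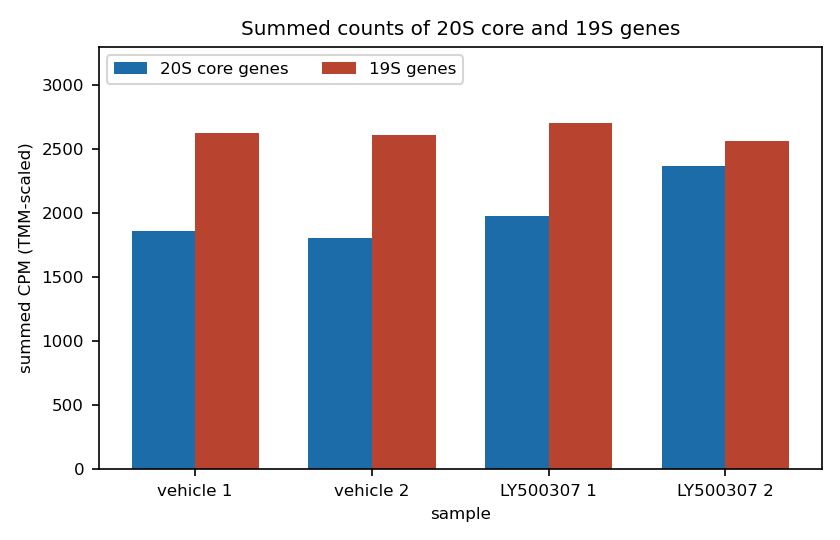
Summed CPM on TMM-scaled libraries (y axis, from 0) of the 20S core genes and the 19S cap genes in each of the 4 samples (x axis), 1 bar per group and sample with no error bar. The cap bars lie between 2563 and 2706 in all samples, and the core bar reaches 2369 in LY500307 replicate 2 against 1808 to 1980 in the others.

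The 2 treated samples differed in how far they lay from vehicle. Against the mean of both vehicle samples, the core genes had a median log2 difference of 0.13 for LY500307 replicate 1 and of 0.33 for replicate 2. For the cap genes it was 0.02 and -0.02. The SD across proteasome genes other than PSMC1 was 0.0809 in replicate 1 and 0.348 in replicate 2, where the difference between the vehicle samples had an SD of 0.110. In replicate 1 the spread was no wider than between the vehicle samples, though the latter compares single samples rather than a sample with a mean. An SD across genes does not show a shared shift. Of these 43 genes, 34 lay above the vehicle mean in replicate 1 and 31 in replicate 2, beside 7340 and 7288 of the 14473 genes tested. Differences beyond 0.5 in either direction were found for 0 of the 43 genes in replicate 1 and for 7 in replicate 2, beside 1385 and 3109 of the 14473 genes tested, a larger share in both samples. Replicate 2 lay farther from vehicle than replicate 1 for 37 of the 44 genes, and for 10086 of the 14473 genes tested.

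**Figure D3:**
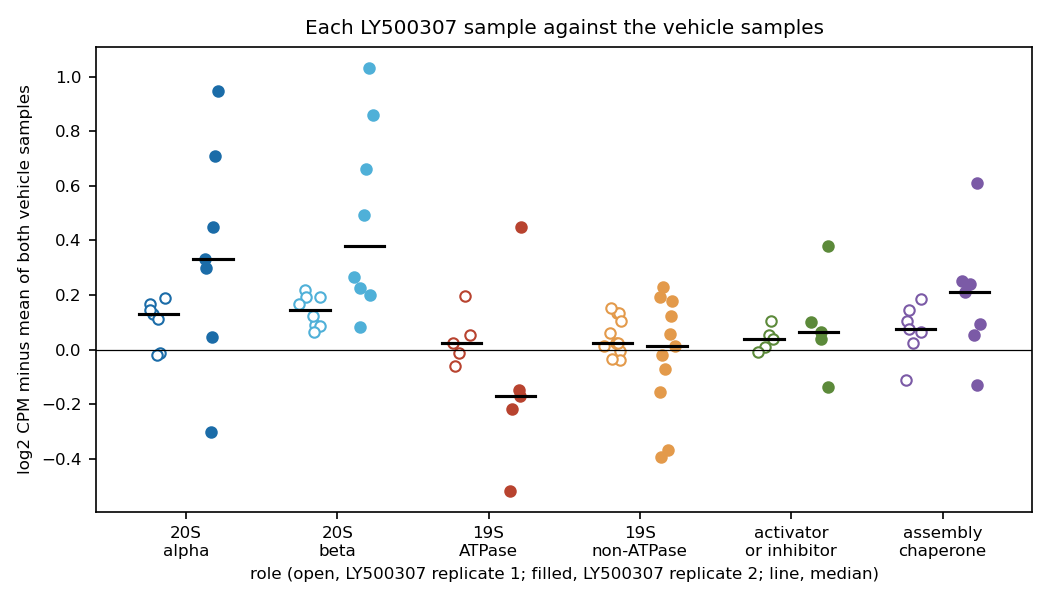
Log2 CPM of each proteasome gene minus the mean of both vehicle samples (y axis) by role (x axis), with open points for LY500307 replicate 1, filled points for LY500307 replicate 2, lines for medians, and PSMC1 left out. Open points stay within 0.5 of 0 in every role, while 7 filled points lie beyond it.

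The core genes also have shorter transcripts, with a median of 984 bases against 1754 for the cap genes. Across the 44 genes, Spearman's rho between transcript length and the log2 difference from vehicle was -0.44 in LY500307 replicate 1 and -0.45 in replicate 2, and -0.05 between the vehicle samples. Across 13643 genes it was -0.18, -0.22 and -0.06. These values describe genes that share libraries and are not independent replicates. When a trend with transcript length was subtracted in each sample, the median of the core genes was 0.12 and that of the cap genes -0.06, and 0 proteasome genes were called. PSMA2 then had a log2 fold change of 0.50 and PSMB3 of 0.40. When a trend with GC content was subtracted instead, the core median was 0.31 and the cap median -0.01, against 0.26 and 0.02 with no correction. PSMA2 was then called and PSMB3, at 0.48, was not. Spearman's rho between GC content and the log2 difference was 0.42 and 0.20 in LY500307 replicates 1 and 2 across the 44 genes. Across 13643 genes it was 0.26 and 0.33. The parts of transcript length and GC content in the core and cap values were not tested beyond these corrections.

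**Figure D4:**
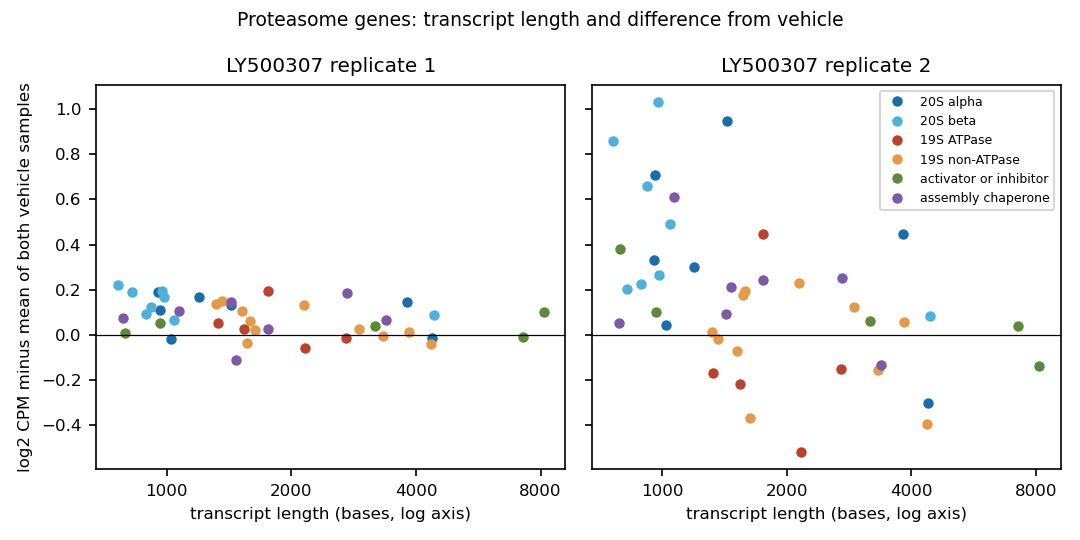
Log2 CPM of each proteasome gene other than PSMC1 minus the mean of both vehicle samples (y axis) against transcript length in bases (x axis, log scale), in LY500307 replicate 1 (left) and replicate 2 (right), coloured by role. The highest points in replicate 2 belong to core genes with short transcripts, and Spearman's rho over all 44 genes was -0.44 and -0.45.

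Of the genes that work with the proteasome, RPS27A, which encodes ubiquitin fused to a ribosomal protein, was called higher. RPS27A had 58.3 and 65.3 CPM with vehicle and 62.5 and 171 CPM with LY500307, a log2 fold change of 0.92 ± 0.38 (SE) and an adjusted p of 0.428 (edgeR). The value of RPS27A came from LY500307 replicate 2 alone, since replicate 1 lay between the vehicle samples, and without replicate 2 it was 0.02. The call was also lost with DESeq2, with a minimum of 50 counts in 2 samples and with the length correction, where the unadjusted p was 0.173, 0.0535 and 0.0730. Of the coding windows of RPS27A, 80.4% occurred elsewhere in the genome, so its counts are uncertain. UBB, which encodes a ubiquitin chain, had 269 and 292 CPM with vehicle and 292 and 340 CPM with LY500307. It was not called, with a log2 fold change of 0.18 ± 0.12 (SE). Of the coding windows of UBB, 40.3% occurred elsewhere, so its counts are uncertain as well.

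The 20 proteasome-associated factors had a median of -0.02 and none was called. Among them, POMP, the chaperone that matures the core, had 81.0 and 62.9 CPM with vehicle and 68.4 and 115.6 CPM with LY500307, with overlap. USP14, a deubiquitinase of the cap, had a log2 fold change of 0.16 ± 0.10 (SE).

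None of the 11 regulators of proteasome genes was called, and their median was 0.03. NFE2L1 had 295 and 300.5 CPM with vehicle and 322 and 254 CPM with LY500307, so the treated samples lay on either side of the vehicle samples, and its log2 fold change was -0.05 ± 0.13 (SE). None of the 10 genes of the VCP segregase and its cofactors was called (median -0.02). The COP9 signalosome, a complex built on the same plan as the scaffold of the cap, had 0 of 9 genes called, with 8 above 0 and a median of 0.14. Of the 9 genes that act with the immunoproteasome in antigen presentation, TAP1, a peptide transporter subunit gene, was called higher. TAP1 had 6.91 and 6.93 CPM with vehicle and 9.77 and 14.4 CPM with LY500307, a log2 fold change of 0.80 ± 0.22 (SE) and an adjusted p of 0.422 (edgeR). Both treated samples were above the vehicle samples, and without LY500307 replicate 2 its log2 fold change was 0.50, just under the criterion. The median of these 9 genes was 0.0039.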

How the data were processed

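The authors aligned 50-base single-end reads to hg19 with TopHat2 2.0.8b and deposited raw read counts per gene symbol from HTSeq, without normalization. The labels name a total RNA kit and the study's methods a stranded mRNA kit. The strand setting and annotation release are not given in the sources used here, so overlapping genes are uncertain. Tally lines for reads outside genes or with several positions, 50.0% to 54.4% of the sum of all lines, were left out.

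Counts of all genes passing filterByExpr went into edgeR 4.0.16 under R 4.3.3 (TMM, quasi-likelihood test, Benjamini-Hochberg adjustment over all genes tested), with DESeq2 1.42.0 as an alternative. SE is the absolute log2 fold change divided by the square root of F, and CPM uses TMM-scaled libraries. The edgeR procedure was tested on simulated counts with planted changes larger than the fold change of any proteasome gene in the main fit. In the simulation no sample stood apart from its group. It therefore does not show how well changes as small as those reported here are found. For transcript length and GC percentage, a GRCh37 gene annotation was used (19752 of 23228 symbols matched, 2169 by an older symbol), and trends were removed as a loess curve (span 0.3, prior count 2) per sample. Promoter sequences came from RefSeq on GRCh38.p14.

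Genes with values are those called, the catalytic beta subunits, the highest, median and lowest of each role, the genes not tested, PSMC3IP and, of the related lists, called genes with NFE2L1, POMP, UBB and USP14. A few genes that the rule covers are not reported here. With an even number of genes, 1 of the middle pair was taken as the median gene. The members and lists were chosen with earlier results of these data known. Replicate numbers from the sample titles were used as a block only in an alternative fit, since they come with no statement of a shared batch.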

Additional observations from a re-analysis of the deposited data

How the results depend on the processing

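The number of proteasome genes called higher was 2 with edgeR, 1 (PSMA2) with the GC correction and 0 with the length correction, and it ranged from 0 to 6 when each sample was left out in turn. Over all genes, 1.92% and 1.94% were called higher with these corrections. No proteasome gene was called higher without LY500307 replicate 2 (0.967% of all genes). There were 6 without LY500307 replicate 1 (PSMA2, PSMA7, PSMB3, PSMB4, PSMB10 and PSMG2), when PSMC6 was called lower (0 to 1 lower over the samples left out), beside 7.45% of all genes called higher and 6.31% lower in that fit. In these fits the lone sample of a group is assumed to vary like the other group. PSMB10 was called with DESeq2, with all genes with at least 1 count and without vehicle replicate 2. RPS27A lost its call with DESeq2, a minimum of 50 counts, the length correction and without LY500307 replicate 2. Over the related lists, the number called higher was 0 without LY500307 replicate 2 and 5 when replicate 1 of that group was left out, and the number called lower ranged from 0 to 2 when samples were left out, and 1 was called lower with the GC correction. The median of the 44 genes ranged from 0.067 to 0.15 and that of the core genes from 0.13 to 0.34 when samples were left out. With the length correction the medians were 0.12 for the core and -0.059 for the cap. With the GC correction they were 0.31 and -0.011. Library totals in place of TMM moved the median of all genes by 0.04. With the replicate number as a block, 3 proteasome genes were called higher (PSMB10 was added), beside 2.77% of all genes. With the GC correction as well there were 2 (PSMA2 and PSMB10), beside 1.83% of all genes. With the block and the length correction there were 0, beside 1.89% of all genes, and the medians of core and cap were 0.12 and -0.060. With the block and the GC correction 1 related gene was called lower, beside 2.15% of all genes. Same-numbered samples did not deviate together (r = -0.07 over all genes, -0.23 over the upper 7236 by level). A block with crossed numbers, added after the data were seen, called 3 proteasome genes higher and 0 lower. Signs turned for 6 genes whose values lay near 0 or rested on 1 sample. NFE2L1 was at 0.11 without LY500307 replicate 2, and POMP ranged from -0.075 (without that sample) to 0.69 when samples were left out. PSMC2 was at 0.018 with the GC correction and at 0.017 with the block added. PSMD5 was at 0.0050 with library totals, at 0.042 with the GC correction, with or without the block, and between -0.13 and 0.061 when samples were left out. PSMD6 was at -0.019 with the length correction and at -0.024 with the block added, and between -0.013 and 0.15 when samples were left out. PSMF1 was at 0.023 with library totals, at 0.043 with the length correction and at 0.041 with the block added, and between -0.13 and 0.10 when samples were left out. The causes were not tested. For the 30 genes followed under every setting, 399 of 450 values kept their sign and their side of the criteria. Most of these genes were not called in the main fit, and for them staying uncalled counts as kept. The share therefore does not measure how stable the calls were. At this depth PSMA8, PSMB8, PSMB9 and PSMB11 could not be compared.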
